A study of Mus musculus with 9 samples.

Results

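The genes described here carry the signal of insulin and leptin into the cell through Akt and mTOR. They are Insr, Lepr, Irs1, Irs2, Akt1, Akt2, Foxo1, Foxo3 and Tsc2, a set of 9 chosen by name from 19938 genes that have a probe set naming a single gene. A probe set is the group of short probes on the array that reports 1 transcript. For each gene the probe set with the highest mean over all arrays was used, and all 9 genes had at least 1. No gene was dropped for low signal.

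RNA came from mouse brain tissue, which the series text calls cortex, on 9 Affymetrix arrays with 3 biological replicates in each of 3 groups. The first group was B6SJLF1/J wild type given PBS (phosphate-buffered saline). The second was 5xFAD given PBS, called vehicle 5xFAD here, and the third was 5xFAD given human amylin, called amylin 5xFAD. All mice were about 5 months of age and received their intraperitoneal injection each day over 10 weeks, so by the labels wild type differed from vehicle 5xFAD in genotype and the 5xFAD groups differed in the peptide. 5xFAD mice carry human transgenes under the neuronal Thy1 promoter and lay down amyloid plaques; amylin is a hormone that the beta cell secretes together with insulin. The labels call the replicates biological and do not tie each one to an animal.

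The insulin receptor (Insr) is a tyrosine kinase that phosphorylates the adaptors Irs1 and Irs2, which recruit PI3K and so switch on the Akt kinases. Akt phosphorylates FoxO transcription factors, which then leave the nucleus, and Tsc2, a brake on mTORC1, the kinase complex that drives protein synthesis. FoxO factors in turn are known to induce Insr and Irs2, a feedback loop in many tissues. The leptin receptor (Lepr) signals through Jak2 and Stat3 and also reaches PI3K. These steps run largely by phosphorylation, which an array of RNA does not measure.

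Vehicle 5xFAD arrays carried more Foxo1 RNA and less Tsc2 RNA than wild type. The Akt2 probe set used showed a smaller rise, whose call was lost on leaving out any array of these groups. Which transcript that probe set reads is uncertain, as described below. Foxo1 was 1.31-fold higher and Tsc2 was 1.24-fold lower. In this comparison 3 of the 9 genes passed, where 8.58% of all genes tested passed: 2 were higher (3.66% of all genes) and 1 was lower (4.92%). A gene passed at a Benjamini-Hochberg adjusted p under 0.05 over all genes in limma, a linear model with pooled variance fitted to all 9 arrays. No member passed for amylin against vehicle, and for amylin 5xFAD against wild type 1 was higher, Foxo1 (2.35% of all genes), and 0 were lower (2.86%). All values are log2 intensities, on which 1 unit is a doubling, and differences are log2 differences with their standard error (SE).

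The stretch just upstream of the start is shown for Foxo1, which rose, for its paralog Foxo3, which did not pass, and for Tsc2, which fell. Each is the 250 bases before the gene's start in RefSeq (GRCm38.p6), read 5′ to 3′ along the gene. Capitals mark the GC box, GGGCGG or its reverse complement, to which Sp1-type factors bind.
Foxo1: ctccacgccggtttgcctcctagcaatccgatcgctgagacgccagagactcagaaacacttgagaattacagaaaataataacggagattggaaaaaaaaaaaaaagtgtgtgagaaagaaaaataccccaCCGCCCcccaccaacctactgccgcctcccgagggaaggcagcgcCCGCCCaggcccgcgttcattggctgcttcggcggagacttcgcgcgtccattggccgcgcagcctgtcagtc
Foxo3: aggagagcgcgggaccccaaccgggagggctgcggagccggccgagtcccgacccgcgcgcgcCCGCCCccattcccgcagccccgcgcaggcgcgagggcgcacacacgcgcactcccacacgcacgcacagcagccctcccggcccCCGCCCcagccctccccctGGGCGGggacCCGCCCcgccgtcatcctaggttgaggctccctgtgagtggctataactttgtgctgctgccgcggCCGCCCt
Tsc2: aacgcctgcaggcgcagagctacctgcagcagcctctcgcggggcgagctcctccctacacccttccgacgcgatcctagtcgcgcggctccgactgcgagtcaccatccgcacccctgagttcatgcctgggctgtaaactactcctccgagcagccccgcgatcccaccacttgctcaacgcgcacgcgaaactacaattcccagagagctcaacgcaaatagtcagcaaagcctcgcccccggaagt

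The Foxo1 window is chr3:52268087-52268336 on the plus strand, the Foxo3 window chr10:42276696-42276945 on the minus strand and the Tsc2 window chr17:24632628-24632877 on the minus strand. Foxo1 held 2 GC boxes, Foxo3 held 5 and Tsc2 held 0, while 32.7% of 32851 such windows of mouse genes held at least 1 on either strand. The Foxo3 window was 76.4% G and C, the Tsc2 window 62.8% and the Foxo1 window 56.0%, against a median of 52.4% over all windows. Windows were found for 8 of the 9 genes (13 windows in all, since Akt1, Akt2 and Lepr have several starts). The FoxO element GTAAACA, searched on both strands, was in 1 of the 13, a window of Akt1, and in 3.17% of all windows. The TATA box TATAAA was in 0 of the 13 and in 12.4% of all windows. These matches describe the letters of the windows only.

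The groups also differed in markers of brain regions and cell types. In vehicle 5xFAD against wild type, 11 of 11 striatal markers rose, 7 of 9 hippocampal and 8 of 10 thalamic markers fell. The summed striatal level, as log2 of the summed intensities, was 11.77 to 12.12 in wild type, 13.22 to 13.47 in vehicle and 13.26 to 13.40 in amylin 5xFAD. The summed hippocampal level was 11.82 to 11.96, 11.12 to 11.31 and 11.25 to 11.30, and the thalamic level 11.97 to 12.31, 11.11 to 11.42 and 11.10 to 11.62. Microglial markers summed to 10.72 to 10.74, 11.92 to 12.63 and 11.88 to 12.24. Olfactory bulb markers, of which 1 of 8 passed, summed to 9.31 to 9.66, 9.68 to 11.04 and 9.73 to 10.84.

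Cortical excitatory neuron markers were present, with all 9 above the median of all genes in mean level, and 2 of 9 fell in vehicle 5xFAD. Of the remaining lists, 1 of 9 endothelial and 1 of 10 astrocyte markers rose. The fallers were 2 of 10 astrocyte, 1 of 9 oligodendrocyte, 1 of 9 choroid plexus and 1 of 10 meningeal fibroblast markers. In amylin 5xFAD against wild type 5 of 9 oligodendrocyte markers fell, with a median of -0.27. Their summed level was 13.14 to 13.37 in wild type, 12.96 to 13.17 in vehicle and 12.86 to 12.98 in amylin 5xFAD. Lepr is known to be abundant in the choroid plexus. Markers of that tissue summed to 12.02 to 12.36 in wild type, 12.11 to 12.35 in vehicle and 11.96 to 12.16 in amylin 5xFAD. This sum is dominated by Ttr, which alone read 11.79 to 12.15 in wild type. In mean level 4 of the 9 choroid plexus markers lay below the median of all genes. Beyond a fit with the olfactory bulb mean as a term, given below, the part of these regions and cells in the values of Foxo1, Akt2, Tsc2 and the pathway genes was not tested. In RNA of whole tissue, fewer cells of a type and less RNA per cell cannot be told apart. Striatal, hippocampal and thalamic levels set both 5xFAD groups apart from wild type. In comparisons with wild type, genotype and the regions in the tissue taken therefore cannot be told apart.

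Insr, the insulin receptor, read 8.40, 8.62 and 8.57 in wild type, 8.55, 8.39 and 8.53 in vehicle 5xFAD and 8.75, 8.56 and 8.59 in amylin 5xFAD. Wild-type and vehicle arrays overlapped, and the lowest amylin array lay just above the highest vehicle array. The difference of vehicle from wild type was -0.04 ± 0.08 (SE, 95% confidence interval -0.22 to 0.13, limma adjusted p = 0.853). A second Insr probe set, 10576696, gave -0.14 ± 0.07 there and 0.14 ± 0.07 for amylin against vehicle, with 0.14 ± 0.08 for the first. Neither probe set of Insr passed in any comparison.

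Lepr, the leptin receptor, had the lowest signal of the set: its mean stood at the 25.7th percentile of all genes, and the other 8 members stood between the 61st and the 93.4th. Its values ran from 4.80 to 4.84 in wild type, 4.66 to 4.84 in vehicle 5xFAD and 4.68 to 4.80 in amylin 5xFAD. The same value, 4.80, came from 4 of the 9 arrays. All groups overlapped, and the differences of -0.08 ± 0.06, 0.03 ± 0.06 and -0.05 ± 0.06 for vehicle against wild type, amylin against vehicle and amylin against wild type did not pass (limma adjusted p from 0.545 to 0.942). The 95% interval for vehicle against wild type was -0.21 to 0.06.

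Irs2, an adaptor important for insulin action in liver, read 8.20, 8.003 and 8.25 in wild type and 7.94, 7.79 and 7.85 in vehicle 5xFAD. Every vehicle array was below every wild-type array. The difference of -0.29 ± 0.08 (1.23-fold lower) stood at the threshold without passing it (limma adjusted p = 0.0551). It passed without wild-type replicate 2 (adjusted p = 0.0331), without amylin replicate 3 (0.0488), with arrays centred on the median (0.0466), with array weights (0.0375), with a trended, robust prior (0.0429) and on dropping the dimmest 25% (0.0425) or 50% (0.0303) of genes. Over all alternatives it ranged from 0.0303 to 0.188. Amylin arrays, at 8.07, 8.003 and 7.85, spread across the gap between the other groups. They differed by 0.12 ± 0.08 from vehicle and by -0.18 ± 0.08 from wild type, without passing.

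Irs1, the other adaptor, had the largest standard error of the set. It ran from 7.12 to 7.28 in wild type, from 6.88 to 7.24 in vehicle 5xFAD and from 6.97 to 7.31 in amylin 5xFAD, so that all groups overlapped. Replicate 2 was the lowest array of both 5xFAD groups. The difference of vehicle from wild type was -0.12 ± 0.11 (95% interval -0.35 to 0.12, limma adjusted p = 0.626). Over all alternatives it ran from -0.34 to -0.018 without passing (limma adjusted p from 0.0766 to 0.964). The second probe set, 10347792, read only 3.85 to 4.27 and gave the same -0.12 ± 0.10.

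Akt1, the isoform linked to growth and survival, stood between 9.02 and 9.11 in wild type, 9.04 and 9.09 in vehicle 5xFAD and 9.06 and 9.15 in amylin 5xFAD. The vehicle difference was -0.01 ± 0.05 (95% interval -0.12 to 0.10, limma adjusted p = 0.941), and all groups overlapped.

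Akt2, the isoform most tied to insulin-driven glucose uptake, read 9.31, 9.45 and 9.46 in wild type and 9.67, 9.59 and 9.66 in vehicle 5xFAD. All vehicle arrays were above all wild-type arrays, and so were the amylin arrays at 9.55, 9.65 and 9.61. Akt2 rose by 0.24 ± 0.06 in vehicle 5xFAD (1.18-fold, limma adjusted p = 0.0318) and differed by 0.20 ± 0.06 in amylin 5xFAD without passing (0.0752). The vehicle call was lost without any 1 of the 6 arrays compared (adjusted p = 0.11, 0.0611 and 0.056 without wild-type replicate 1, 2 and 3, and 0.0904, 0.0502 and 0.102 without vehicle replicate 1, 2 and 3).

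The Akt2 signal comes from probe sets of unlike position. In the order of probe set numbers the brighter one, 10374364, lies between those of Vstm2a and Egfr on chromosome 11, where RefSeq lists the pseudogene Akt2-ps. Of the 20 nearest probe sets naming a single gene, 19 belong to genes of chromosome 11, while the annotation table names Akt2 for this one. The other, 10551393, lies among probe sets of chromosome 7 (20 of 20), where Akt2 itself is. This second probe set read 8.42, 8.52 and 8.60 in wild type, 8.87, 8.93 and 8.74 in vehicle 5xFAD and 8.55, 8.77 and 8.71 in amylin 5xFAD. Vehicle arrays were again all above wild type, while an amylin array fell inside the wild-type range. Put in place of the first, it gave a rise of 0.33 in vehicle 5xFAD (limma adjusted p = 0.0261) and a difference of 0.17 in amylin 5xFAD (0.279). Adjusted over all 35556 probe sets rather than over genes, neither Akt2 probe set passed in vehicle 5xFAD (limma adjusted p = 0.0648 for the brighter and 0.0624 for the other). How far the brighter probe set reads transcripts of the pseudogene was not tested.

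**Figure D1:**
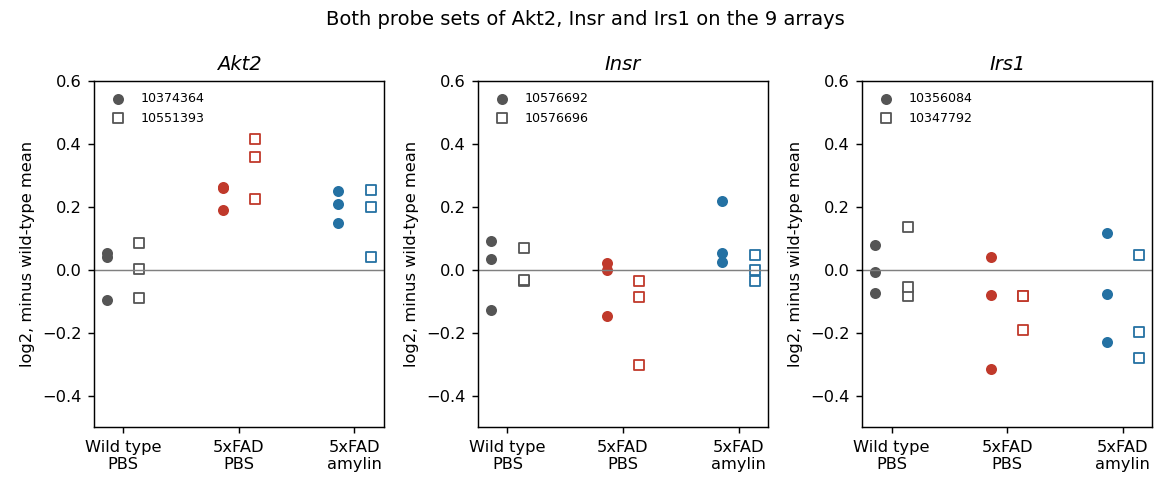
Values of both probe sets of Akt2, Insr and Irs1 on each of the 9 arrays, as log2 intensity minus that probe set's wild-type mean (y axis), by group (x axis). Filled circles are the probe set used and open squares the other one; both Akt2 probe sets lie above every wild-type array in vehicle 5xFAD.

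Foxo1, which switches on genes of fasting and stress resistance when Akt is quiet, showed the largest difference of the set. It read 7.74, 7.60 and 7.60 in wild type, 8.09, 7.98 and 8.04 in vehicle 5xFAD and 8.08, 7.90 and 7.99 in amylin 5xFAD. All 6 arrays of 5xFAD mice were above all 3 of wild type, and the 5xFAD groups overlapped. Foxo1 rose by 0.39 ± 0.06 in vehicle 5xFAD (95% interval 0.25 to 0.53, limma adjusted p = 0.00617). This call was kept without any 1 array. It was lost with the mean of olfactory bulb markers as a term (0.29, adjusted p = 0.0612), a mean that itself differed between wild type and 5xFAD. In amylin 5xFAD Foxo1 rose by 0.34 ± 0.06 (adjusted p = 0.0158). That call was lost without wild-type replicate 2 (0.0652), wild-type replicate 3 (0.0656) or amylin replicate 3 (0.0539) and with the olfactory bulb term (0.22, adjusted p = 0.246).

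Foxo3, the paralog also held in check by Akt, ran from 8.04 to 8.11 in wild type, 7.94 to 8.04 in vehicle 5xFAD and 7.94 to 8.01 in amylin 5xFAD. Its differences from wild type, -0.09 ± 0.05 in both 5xFAD groups, did not pass (limma adjusted p = 0.359 in vehicle and 0.377 in amylin). Of the other FoxO factors, Foxo4 and Foxo6, neither passed; the smaller p in vehicle 5xFAD was that of Foxo6, with -0.11 ± 0.07 (0.424).

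Tsc2, which with Tsc1 keeps the GTPase Rheb and thereby mTORC1 inactive, read 8.95, 8.88 and 8.90 in wild type, 8.61, 8.55 and 8.64 in vehicle 5xFAD and 8.72, 8.76 and 8.67 in amylin 5xFAD. None of the 3 groups overlapped: wild type was highest, vehicle 5xFAD lowest and amylin 5xFAD between them. Tsc2 fell by 0.31 on the log2 scale in vehicle 5xFAD (SE 0.05, 95% interval -0.42 to -0.20, limma adjusted p = 0.00493). It was the member whose call held under all 20 alternatives (adjusted p from 0.00227 to 0.0367). None of these held a striatal, hippocampal or thalamic term, and many leave the difference itself unchanged, as the closing section lists. Its difference of -0.19 ± 0.05 in amylin 5xFAD from wild type fell just short (adjusted p = 0.0509) and passed under 5 alternatives, as listed with the other settings.

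Across the set, 4 of 9 genes had vehicle 5xFAD arrays that did not overlap with wild type, against 26.8% of all genes. For amylin 5xFAD and wild type this held for 4 of 9, against 23.1%. An unadjusted p under 0.05 was reached by 4 of 9 for vehicle (21.2% of all genes) and by 3 of 9 for amylin 5xFAD against wild type (19.2%). With 3 arrays against 3, the exact two-sided permutation test cannot go below 0.1 for a single gene, and it gave 0.1 for each of these. The median difference of the 9 genes in vehicle 5xFAD was -0.08, with -0.01 for all genes. Amylin 5xFAD shares its wild-type arrays with the vehicle comparison, so the values of both stand side by side and are not independent.

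**Figure D2:**
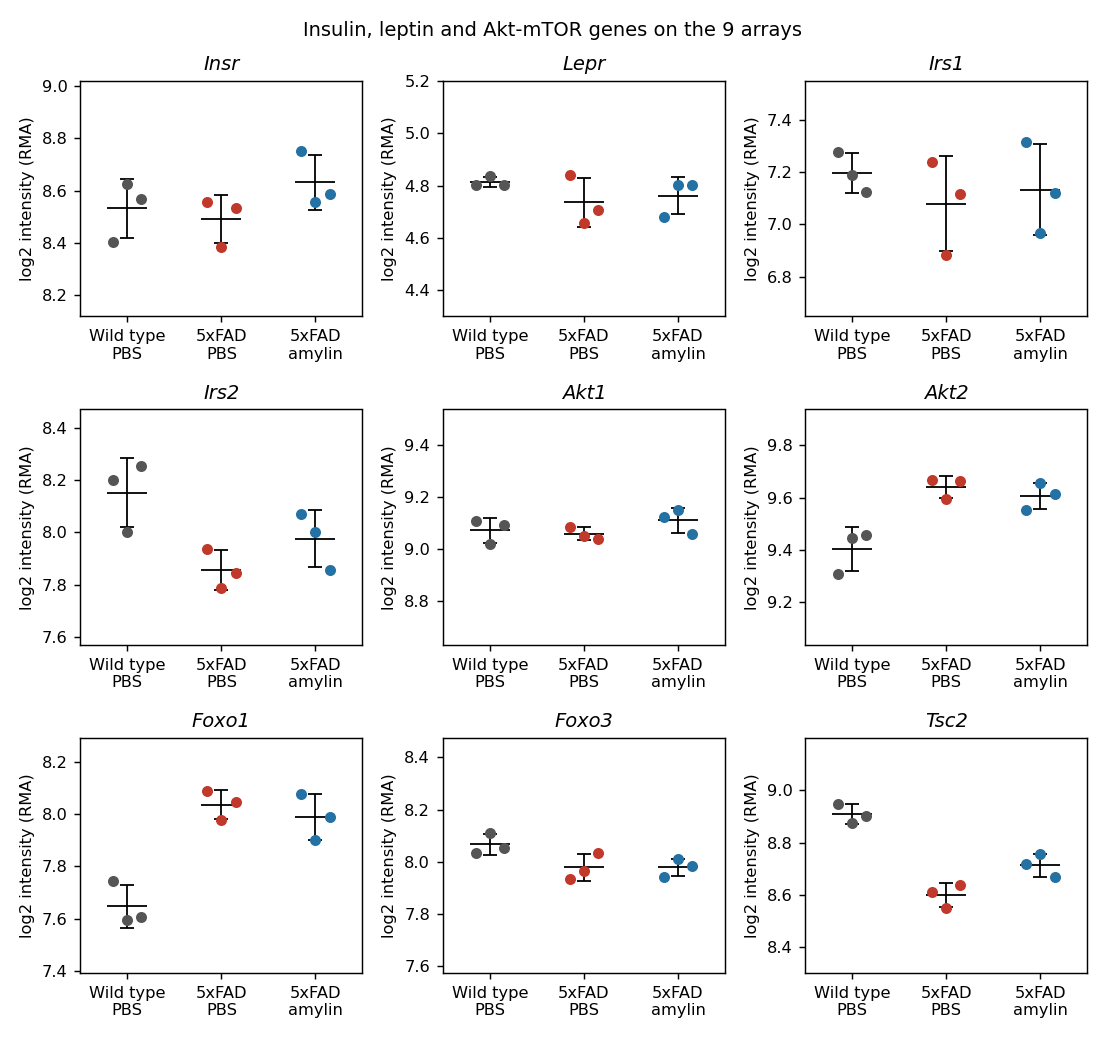
Log2 intensity (y axis, each panel spanning 0.9 units) of the 9 genes on every array, by group (x axis); points are arrays, the horizontal bar is the group mean and the whiskers are 1 SD (n = 3). Foxo1 and Akt2 are higher and Tsc2 is lower on all 6 arrays of 5xFAD mice than on the 3 wild-type arrays.

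Amylin against vehicle within 5xFAD asks whether the peptide moved these genes. In limma 0 of 9 members passed, where 0.00502% of all genes did (1 gene of 19938). Tsc2 had the smallest p: it was 0.11 ± 0.05 higher under amylin (95% interval 0.0052 to 0.22, unadjusted p = 0.0419, adjusted p = 0.714). It was also the 1 member with an unadjusted p under 0.05, against 6.9% of all genes. Amylin arrays did not overlap with vehicle arrays for 2 of 9 genes, Tsc2 and Insr, against 9.3% of all genes. For the second Insr probe set the groups were not apart, since both held the value 7.73.

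The 95% intervals of the 9 differences between amylin and vehicle reached from -0.19, for Foxo1, to 0.32, for Insr. Foxo1 differed by -0.05 ± 0.06 and Akt2 by -0.03 ± 0.06. Irs2 differed by 0.12 ± 0.08, and Foxo3 by -0.00052 ± 0.05. These intervals are the limit of what 3 arrays a group can show, and a missed threshold does not mean that the groups were alike.

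**Figure D3:**
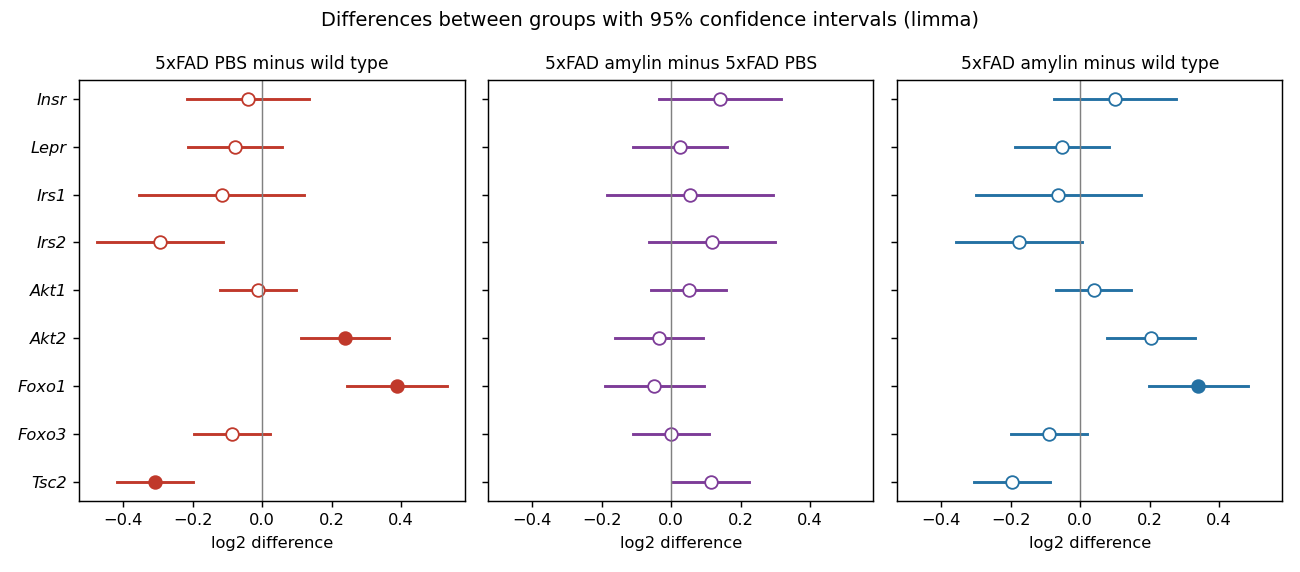
Log2 difference between groups for each of the 9 genes (x axis) with its 95% confidence interval from limma; filled points passed at an adjusted p under 0.05. For amylin against vehicle no point is filled, and the intervals lie between -0.19 and 0.32.

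The rest of the pathway was read from 9 lists with 82 genes, of which 77 were measured. In vehicle 5xFAD against wild type 4 rose and 4 fell (10.4% passed, against 8.58% of all genes). The median difference was -0.06, against -0.01. In limma amylin against vehicle gave 0 of 77, with 12 at an unadjusted p under 0.05 (6.9% of all genes) and a median of 0.03 (6e-04 for all genes). The smallest p there was that of Irs4, a further adaptor, with 0.67 ± 0.20 (unadjusted p = 0.008, adjusted p = 0.664). Amylin 5xFAD against wild type gave 5 higher and 3 lower (10.4%, against 5.21% of all genes). The count of 8 for vehicle became 3, 5 and 2 without wild-type replicate 1, 2 and 3. It became 5 and 2 without vehicle replicate 1 and 3. For amylin 5xFAD the 8 became 3, 4 and 4 without wild-type replicate 1, 2 and 3, and 4 without amylin replicate 3.

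Genes of leptin signalling held both of its central transducers among the risers. Jak2, the kinase bound to the leptin receptor and to many cytokine receptors, rose by 0.32 ± 0.07 in vehicle 5xFAD (limma adjusted p = 0.0171) and by 0.46 ± 0.07 in amylin 5xFAD (0.0047). It read 8.11, 8.29 and 8.15 in wild type, 8.58, 8.42 and 8.51 in vehicle and 8.70, 8.57 and 8.67 in amylin 5xFAD, with both 5xFAD groups wholly above wild type. Stat3, the transcription factor that Jak2 activates, rose by 0.30 ± 0.07 (0.0215) and 0.42 ± 0.07 (0.0076). Its arrays ran from 7.85 to 7.96 in wild type, 8.10 to 8.26 in vehicle and 8.22 to 8.38 in amylin 5xFAD. In all, 2 of 8 genes of this list rose and 0 fell in either comparison with wild type, where 3.66% of all genes rose in vehicle and 2.35% in amylin 5xFAD. The median of the list in vehicle 5xFAD was -0.0050. Jak2 no longer passed in vehicle 5xFAD on leaving out wild-type replicate 1 (adjusted p = 0.075) or 3 (0.0672) or vehicle replicate 1 (0.0571) or 3 (0.0592). Stat3 was lost there without wild-type replicate 2 (0.0785) or 3 (0.0724) or vehicle replicate 2 (0.0732) or 3 (0.0821). The amylin calls of both were kept without any 1 array.

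Among 12 brakes on the receptors and on PI3K, 1 rose and 0 fell in vehicle 5xFAD, where 3.66% of all genes rose and 4.92% fell. The riser was Inpp5d (SHIP1), a lipid phosphatase of blood and microglial cells that breaks down the PI3K product. It read 6.43, 6.43 and 6.36 in wild type, 6.96, 7.72 and 7.41 in vehicle and 7.34, 7.58 and 7.21 in amylin 5xFAD. The rise was 0.96 ± 0.16 in vehicle (limma adjusted p = 0.00754) and 0.97 ± 0.16 in amylin 5xFAD (0.0105). Both calls held under all 20 alternatives, several of which leave the difference itself unchanged. In vehicle 5xFAD 9 of 9 measured microglial markers also rose, against 3.66% of all genes. The part of microglia in the Inpp5d values was not tested. The other brakes, among them Ptpn1, Socs3 and the phosphatases Phlpp1 and Phlpp2, did not pass.

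Of the kinases beside Akt1 and Akt2, 1 of 5 rose, where 3.66% of all genes rose in vehicle and 2.35% in amylin 5xFAD. It was Sgk3, a relative of Akt that PI3K also activates. Sgk3 rose by 0.29 ± 0.08 in vehicle (limma adjusted p = 0.0433) and 0.36 ± 0.08 in amylin 5xFAD (0.0254). The vehicle call was lost without wild-type replicate 1 (0.159) or 3 (0.153), without vehicle replicate 1 (0.0595), 2 (0.13) or 3 (0.086) and without amylin replicate 2 (0.0632) or 3 (0.0584). The amylin call was lost without wild-type replicate 1 (0.113) or 3 (0.0954) and without amylin replicate 2 (0.066) or 3 (0.0913). Of 10 adaptors and PI3K subunits 0 passed in vehicle 5xFAD, against 8.58% of all genes. The smallest p there was that of Pik3cd, with -0.24 ± 0.08 (adjusted p = 0.102). Of 4 ligands and related receptors 0 passed either, and Insrr, an orphan relative of the insulin receptor, came first with 0.05 ± 0.05 (0.704).

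Around mTORC1, the gene that fell was Ddit4 (REDD1), a stress-induced protein that inhibits mTORC1 through the Tsc complex. It read 8.09, 8.004 and 8.05 in wild type, 7.03, 7.60 and 7.20 in vehicle and 7.54, 7.51 and 7.16 in amylin 5xFAD, with both 5xFAD groups wholly below wild type. Ddit4 fell by 0.77 in vehicle (SE 0.14, limma adjusted p = 0.01) and by 0.65 in amylin 5xFAD (SE 0.14, 0.0302). The vehicle call was kept without any 1 array. The amylin call was lost without each of the wild-type arrays (0.123, 0.0817 and 0.0925), without vehicle replicate 3 (0.0525) and without amylin replicate 2 (0.0508) or 3 (0.0993). Both calls were lost with the olfactory bulb term (-0.50, adjusted p = 0.0784, and -0.32, adjusted p = 0.398). Ddit4 was 1 of 12 genes of mTORC1 outputs and inputs to pass in vehicle 5xFAD, against 8.58% of all genes.

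In amylin 5xFAD against wild type Sesn3, a sestrin that restrains mTORC1 and a FoxO target, also rose, by 0.36 ± 0.07 (limma adjusted p = 0.0151), a call lost without wild-type replicate 1 (0.0601) or 2 (0.0605). In vehicle 5xFAD it differed by 0.18 ± 0.07 (0.145). Akt1s1 (PRAS40), an mTORC1 subunit that Akt phosphorylates, fell by 0.25 in amylin 5xFAD (SE 0.06, adjusted p = 0.0453) and differed by -0.11 ± 0.06 in vehicle (0.356). The Akt1s1 call was lost without any 1 array other than amylin replicate 2 (adjusted p from 0.0557 to 0.17). The direct contrast of amylin with vehicle did not pass for Sesn3 (0.18 ± 0.07, 0.696) or Akt1s1 (-0.14 ± 0.06, 0.717). Of 10 genes of the Tsc and mTOR complexes 0 passed in vehicle 5xFAD, against 8.58% of all genes. The nearest was Rptor, the scaffold of mTORC1, with -0.15 ± 0.04 (0.0669).

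Of 14 measured genes listed as FoxO targets, 0 rose (3.66% of all genes) and 3 fell (4.92%) in vehicle 5xFAD, with a median of -0.08. Of these 14, 5 had a positive difference, among them Ccng2 (0.19 ± 0.08, limma adjusted p = 0.177) and Fbxo32 (0.19 ± 0.09, 0.271), which did not pass. Sesn3, described above, was not on this list. Bcl6, a transcriptional repressor, fell by 0.49 (SE 0.10, limma adjusted p = 0.0177). Pdk4, which blocks glucose oxidation in fasting, fell by 0.48 (SE 0.13, 0.0459), and Tsc22d3 (GILZ), a glucocorticoid-induced regulator, fell by 0.53 (SE 0.12, 0.0234). In amylin 5xFAD Pdk4 fell by 0.57 (SE 0.13, 0.0304), while Bcl6 (-0.26 ± 0.10, 0.201) and Tsc22d3 (-0.25 ± 0.12, 0.294) did not pass. Tsc22d3, Pdk4 and Ddit4 are also known targets of the glucocorticoid receptor, whose part in these values was not tested. Bcl6 no longer passed in vehicle 5xFAD on leaving out wild-type replicate 1 (adjusted p = 0.0791) or 3 (0.0533) or vehicle replicate 2 (0.0612) or 3 (0.0556). Tsc22d3 was lost there without any 1 wild-type array (0.0692, 0.0724 and 0.0854) and without vehicle replicate 1 (0.0699) or 3 (0.09). With the olfactory bulb term the Tsc22d3 difference was -0.27 (0.144). Pdk4 was lost there without any 1 array other than amylin replicate 2 (up to 0.177). The amylin call of Pdk4 was lost without any 1 wild-type array (0.128, 0.051 and 0.0801) and without amylin replicate 1 (0.0856) or 3 (0.114), and also with array weights (-0.46, 0.0569).

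**Figure D4:**
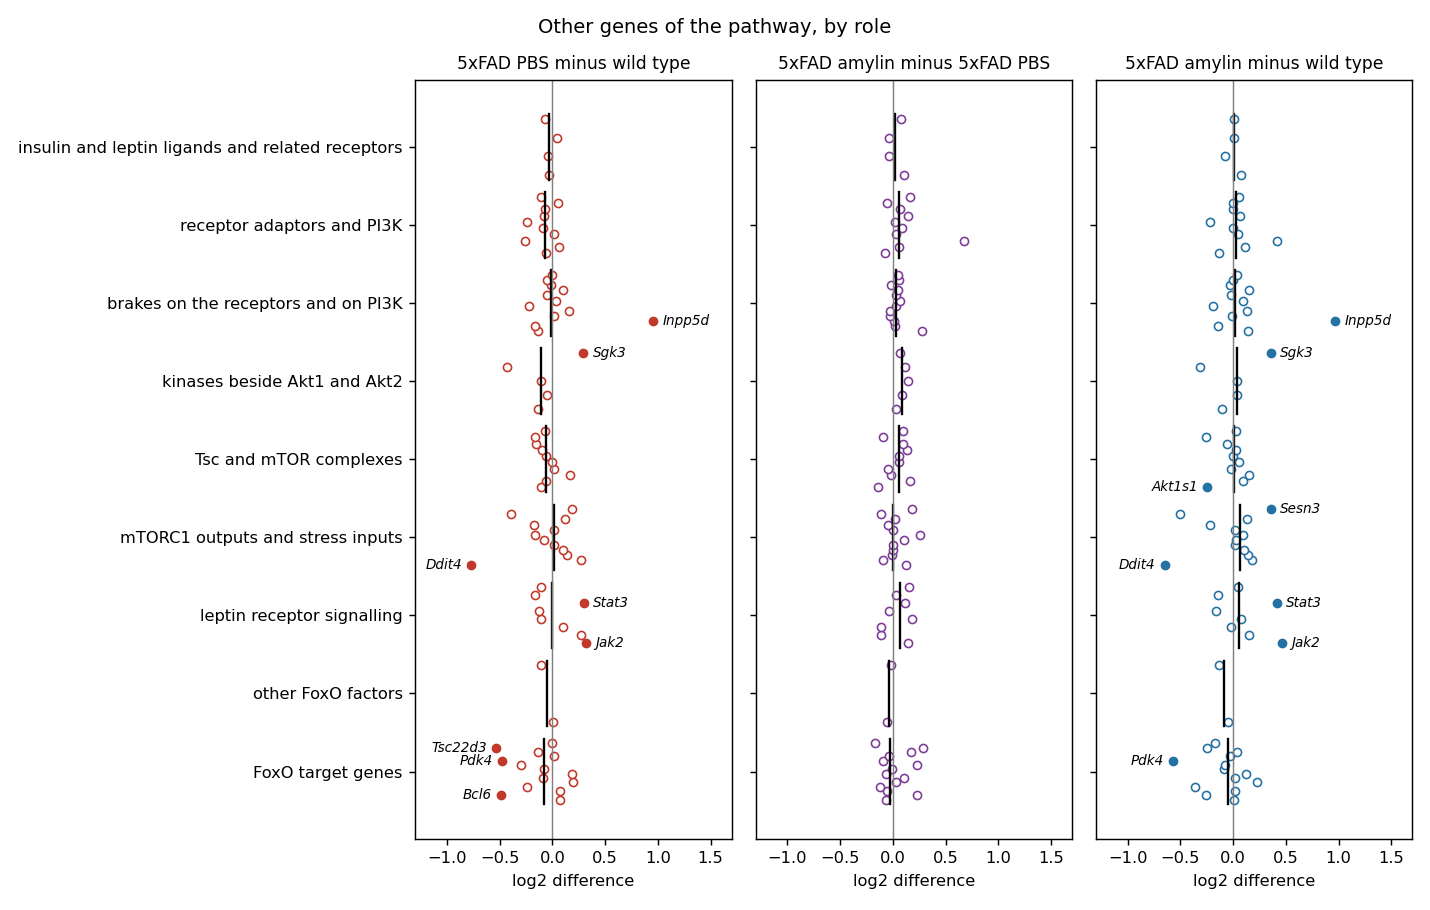
Log2 difference (x axis) of 77 further pathway genes in 9 lists by role (y axis) for the 3 comparisons; points are genes, filled and named where they passed, and black bars are list medians. Inpp5d, Sgk3, Jak2 and Stat3 are filled to the right and Ddit4 and Pdk4 to the left in both comparisons with wild type.

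The olfactory bulb mean was 5.78 to 6.08 in wild type, 6.18 to 7.61 in vehicle and 6.30 to 7.49 in amylin 5xFAD. A fit with this mean as a term therefore cannot fully separate bulb content from genotype. What a lost call reflects was not tested. In vehicle 5xFAD the term took Foxo1 from 0.39 to 0.29 and Akt2 from 0.24 to 0.25, and both lost their calls. With the olfactory bulb mean as a term, 963 of all 19938 genes passed in vehicle 5xFAD, against 1710 without it. Of the 9 members 1 passed there, Tsc2 (-0.31, limma adjusted p = 0.0367). In amylin 5xFAD against wild type 0 members passed with the term, where 435 genes of all still did. Of the pathway genes called in vehicle 5xFAD, 3 passed with this term, Inpp5d, Stat3 and Bcl6, and in amylin 5xFAD against wild type 2 did, Inpp5d and Stat3.

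The genes whose pattern over the 9 arrays was most like that of each called member are given with Pearson's r as a description. For Tsc2 they were Prrt3 (r = 0.9945), Cep170b (0.9855) and Enah (0.981), a regulator of actin filaments. Prrt3 ran from 7.18 to 7.24 in wild type, 6.84 to 6.91 in vehicle and 6.99 to 7.04 in amylin 5xFAD, the same order of groups as Tsc2. For Foxo1 they were Clic1 (0.9825), Postn (0.9785), a matrix protein, and Tab2 (0.976), an adaptor of the kinase TAK1. For Akt2 they were Fnbp1l (0.972), the splicing kinase gene Clk1 (0.970) and Iws1 (0.970).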

How the data were processed

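The values are log2 intensities of 35556 probe sets on 9 arrays, deposited by the authors, who per the submitters' processing notes used RMA and oligo, with no version listed. RMA corrects background, brings arrays to the same quantiles and summarises probes. Array medians ran from 5.71 to 5.79 and the number of arrays limits the precision. Probe sets were named through the platform's annotation, where 21789 name a single gene, 1621 several and 12146 none. The entrez ID of 21698 matched RefSeq GRCm38.p6, which changed 0 symbols. Per gene the probe set with the highest mean was kept (999 genes had several), leaving 19938 genes.

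limma 3.58.1 in R 4.3.3 fitted a mean per group on all 9 arrays with an untrended empirical Bayes prior (6 residual and 3.53 prior degrees of freedom). p-values were Benjamini-Hochberg adjusted over all genes. The script was tested on simulated data. P-values set each difference against the spread between these arrays within groups, moderated by the spread of all genes. Named were all members, every pathway-list gene called in a comparison or else the smallest p of the list, and for each called member the 3 genes with the highest r. The members, lists and tests were chosen with earlier results of these data known. The alternatives are given in the closing section; the Akt2, Insr and Irs1 probe set swap and the olfactory bulb term were added after seeing the data. The array annotation names no genome build.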

Additional observations from a re-analysis of the deposited data

How the results depend on the processing

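Tsc2 in vehicle 5xFAD kept its direction and call under all 20 alternatives, and Foxo1 under 19. Many alternatives could not move these differences, only their adjusted p. They are dropping dim genes, the changed prior, fitting only the 2 groups, the replicate block and leaving out amylin arrays. The probe set alternatives could not move them either, since both genes have a single probe set. Among all alternatives, only the olfactory bulb term concerned tissue content, and none held a striatal, hippocampal or thalamic mean. The count of members called in vehicle against wild type, 3, was 1 with the olfactory bulb term and 2 to 4 over single arrays left out. In amylin 5xFAD against wild type, 1 member became 2 with the quantile normalization repeated or the dimmest 25% of genes dropped, 3 with the dimmest 50% dropped, the trended robust prior or array weights, 0 with the olfactory bulb term, and 0 to 1 over arrays left out. Tsc2 joined under all 5 of these (adjusted p = 0.0476, 0.0402, 0.0261, 0.035 and 0.0491) and Akt2 under the last 3 (0.0398, 0.0497 and 0.0441). For amylin against vehicle 0 members passed under every alternative run.

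Called pathway genes in vehicle 5xFAD, 8, were 5 with only the 2 groups fitted, 14 with array weights, 3 with the olfactory bulb term and 2 to 9 over arrays left out; in amylin 5xFAD, 8, they were 2 with that term and 3 to 7 over arrays left out. Of all genes, the 1710 called in vehicle were 963 with the term and 863 to 1779 over arrays left out, and the 1039 in amylin 5xFAD were 435 and 447 to 1086. With only the 2 groups fitted Sgk3, Pdk4 and Tsc22d3 lost their vehicle calls (adjusted p = 0.0832, 0.0632 and 0.0536), and Pdk4 and Akt1s1 their amylin calls against wild type (0.0526 and 0.0928); array weights also ended the latter (0.0569 and 0.0774). The 1 gene for amylin against vehicle was 0 with only the 2 groups fitted, 2 with the term and 0 to 7 over arrays left out.

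Signs turned for values that did not pass. In vehicle against wild type Akt1 turned to 0.020 with quantile normalization repeated (-0.039 to 0.0053 over arrays left out), and Insr ran from -0.10 to 0.012 over arrays left out. In amylin against vehicle Irs1 turned to -0.048 with array weights and -0.025 with its second probe set (-0.044 to 0.14 over arrays left out). Foxo3 turned to 0.0061 with arrays centred, 0.0039 with array weights and 0.0062 given the olfactory bulb term (-0.022 to 0.027 over arrays left out), and Pdk4 to 0.044 with array weights. Over arrays left out Lepr ran from -0.012 to 0.079 and Inpp5d from -0.19 to 0.19. In amylin 5xFAD against wild type Tsc22d3 turned to 0.064 given the olfactory bulb term, and Irs1 ran from -0.15 to 0.021 over arrays left out. The causes were not tested.

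The labels give same-numbered replicates a number in common and do not say what else they share. The correlation of their deviations ran from -0.06 to 0.18. With the replicate number as a block 3, 0 and 1 members passed in the 3 comparisons, 1638, 0 and 1059 of all genes, and 8, 0 and 7 pathway genes; Akt1s1 lost its call (adjusted p = 0.0712).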
